A study of Arabidopsis thaliana with 24 samples.

Results

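ATM, ATR and the checkpoint clamp genes were described in root tips of Arabidopsis thaliana. The 10 genes were ATM, ATR, ATRIP, RAD17, RAD9, HUS1, RAD1, WEE1, H2AXA and H2AXB, found by locus identifier among the 33296 identified rows of a table of read counts per gene. All 10 had enough reads to be tested, together with 19437 genes in all. Tips of the primary root were taken at 6 days from the wild type Col-0 (WT) and from brl3-2. The brl3-2 line carries T-DNA inserted in BRL3, the gene of a BRI1-like receptor for brassinosteroid hormones. Seedlings of both genotypes spent 2 h in liquid medium that held DMSO alone (mock) or zeocin, a bleomycin-type antibiotic that cuts both DNA strands. The labels give 10 µM zeocin in one field and 2 µM in another, so no dose is attached to a value. Each of the 4 groups, WT mock, WT zeocin, brl3-2 mock and brl3-2 zeocin, had 3 biological replicates per the labels, which makes 12 libraries.

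The genes encode the part of the DNA damage checkpoint that detects damage and starts the signal. ATM responds mainly to double-strand breaks. ATR, with its partner ATRIP, responds to single-stranded DNA coated by replication protein A. The RAD17 protein loads a ring of RAD9, HUS1 and RAD1 (the 9-1-1 clamp) beside damage, a step known in yeast and animals to activate ATR. Both kinases phosphorylate the histone variant H2AX around breaks, and in Arabidopsis they act upstream of SOG1, the main transcription factor of the damage response. WEE1 is a kinase that restrains cyclin-dependent kinases and slows the cell cycle after damage or replication stress.

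Library totals lay between 32668516 and 38276389 counts in 10 libraries. WT mock replicate 3 had 70212858 and WT zeocin replicate 3 had 73481046. BRL3 checked the genotype labels, in CPM (counts scaled to a common library total of 1e6, with TMM factors). It was at 9.55 to 12.9 CPM in WT mock, 21.5 to 31.7 in WT zeocin and 0.698 to 1.26 over the 6 brl3-2 libraries. In WT it rose with zeocin, by 1.36 on the log2 scale. The sum of 6 shoot markers was 103 CPM in brl3-2 mock replicate 2 and 21.4 to 38.0 CPM in the other 11. Without that library, or without both deep WT libraries, the members called were the same in each zeocin comparison.

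Zeocin was followed by a rise of RAD17, WEE1 and H2AXB in both genotypes, while the transcripts of ATM and ATR were not called. A gene was called where the p of edgeR's quasi-likelihood test, adjusted over the 19437 genes by the Benjamini-Hochberg method, was under 0.05. Of the 10 members, 3 rose and 0 fell in WT, where 4.98% of all tested genes were called and 4.07% were called higher. In brl3-2 the same 3 rose and 0 fell, beside 5.38% of all genes called and 4.32% called higher. Averaged over the genotypes, RAD9 joined them, so that 4 of 10 rose, beside 10.2% of all genes called and 7.20% called higher. The treatments did not overlap for 5 members in WT and 5 in brl3-2, all higher under zeocin, beside 9.86% and 13.0% of all genes that lay apart in that direction. These were RAD17, RAD9, WEE1 and H2AXB in both, with HUS1 in WT and RAD1 in brl3-2. The median log2 fold change of the 10 members was 0.55 in WT and 0.26 in brl3-2, against -0.01 and -0.00 for all tested genes. It fell between uncalled genes, RAD9 and RAD1 in WT and HUS1 and RAD9 in brl3-2. Whether the medians differ between the genotypes was not tested. Some markers of root cell types moved with the treatment too. The summed level of 6 stem cell niche and meristem genes was 68.5 to 76.9 CPM in WT mock and 62.2 to 68.6 in WT zeocin, and 69.2 to 78.0 in brl3-2 mock and 62.2 to 68.4 in brl3-2 zeocin, apart only in brl3-2. Averaged over the genotypes 2 of these 6 fell, WOX5 by 0.96 and SHR by 0.24 on the log2 scale (edgeR adjusted p = 0.0235 and 0.0284). WOX5 had only 9 to 39 counts per library. Within a genotype, 0 of the 6 were called in WT and 1 fell in brl3-2. Of 4 root hair genes 1 fell, RHD6 by 0.63 (edgeR adjusted p = 0.00666), and their sum went from 171 to 180 CPM in brl3-2 mock to 108 to 158 under zeocin, while the WT ranges overlapped. Of 4 root cap and 3 xylem genes 0 were called, with overlapping sums. The part of these markers in the members' changes was not tested. In whole tips, a change in the number of cells that express a gene and a change in RNA per cell cannot be told apart.

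**Figure D1:**
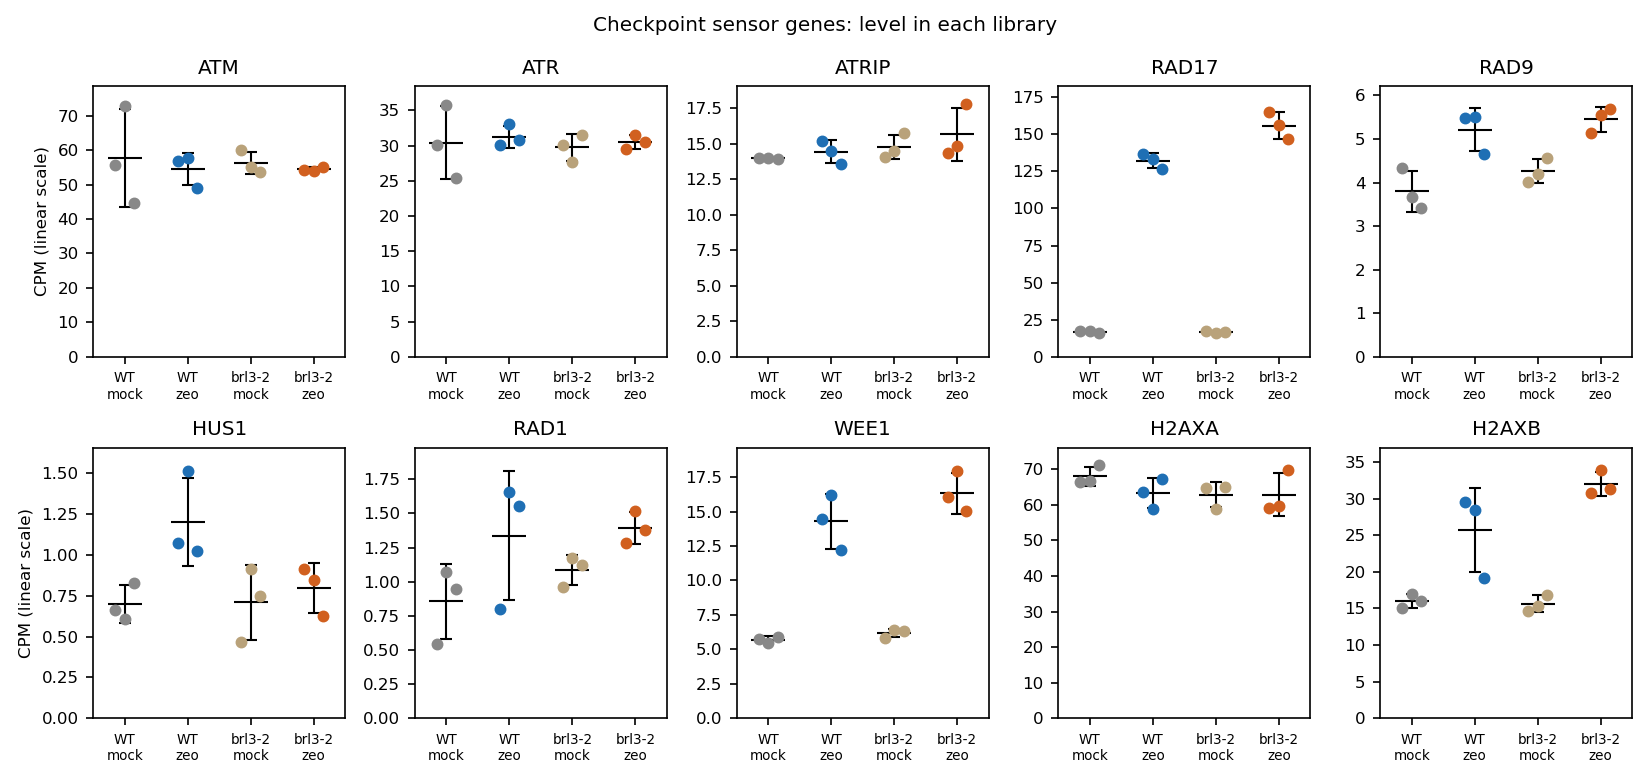
Level of each of the 10 genes in the 12 libraries, in CPM on a linear axis that starts at 0 (points, libraries; horizontal bars, group means; error bars, SD, n = 3). The zeocin libraries lie far above the mock libraries for RAD17, from 127 to 165 CPM against 16.2 to 17.7 CPM, and apart from them for WEE1, whereas ATM, ATR, ATRIP and H2AXA overlap.

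The transcripts of ATM, ATR and ATRIP gave no call. ATM (AT3G48190, chr3:17801289-17828553, plus strand) was at 55.7, 72.7 and 44.6 CPM in WT mock, 56.8, 57.6 and 49.0 in WT zeocin, 60.0, 55.1 and 53.7 in brl3-2 mock and 54.3, 53.9 and 55.1 in brl3-2 zeocin. The WT mock libraries spread most, and the zeocin values fell inside their range. The averaged log2 fold change of ATM was -0.06 ± 0.10 (SE, n = 6 libraries per treatment; edgeR adjusted p = 0.803), with a 95% interval of -0.28 to 0.15.

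ATR (AT5G40820, chr5:16342728-16353898, minus strand) was at 25.4 to 35.8 CPM in WT mock, 30.0 to 33.02 in WT zeocin, 27.7 to 31.5 in brl3-2 mock and 29.5 to 31.6 in brl3-2 zeocin. Its averaged change was 0.04 ± 0.08 on the log2 scale (edgeR adjusted p = 0.854), with a 95% interval of -0.13 to 0.20. ATRIP (AT5G45610, chr5:18496228-18499888, minus strand), the subunit that brings ATR to coated single strands, lay between 13.6 and 17.8 CPM in all 12 libraries. Its averaged change was 0.07 ± 0.06 (edgeR adjusted p = 0.653; interval -0.08 to 0.21). The log2 CPM values of ATM and ATR, all scaled by the same factors, had a Pearson correlation of 0.78 over 12 libraries. WT mock replicate 2 was highest for both genes (72.7 and 35.8 CPM) and WT mock replicate 3 lowest (44.6 and 25.4 CPM). What those libraries add to the correlation was not tested.

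RAD17 had the largest change of the 10. RAD17 (AT5G66130, chr5:26433964-26437222, plus strand) encodes the large subunit of the loader that places the 9-1-1 clamp. Its level was 17.5, 17.2 and 16.3 CPM in WT mock and 136, 134 and 127 CPM in WT zeocin. In brl3-2 it was 17.7, 16.2 and 16.5 CPM in mock and 165, 156 and 147 CPM under zeocin. Every zeocin library stood far above every mock library, and the SD within a group was at most 8.97 CPM. The rise was 7.79-fold in WT (95% interval 7.04 to 8.63; edgeR adjusted p = 1.5e-10) and 9.27-fold in brl3-2 (8.36 to 10.3; edgeR adjusted p = 8.6e-11). By unadjusted p, RAD17 ranked 5 of the 19437 genes in WT and 4 in brl3-2.

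The starts of RAD17 and of AT5G66120, a gene on the opposite strand, are 63 bases apart in TAIR10.1, the annotation used for sequences and gene models. The bases between them, which both genes have upstream of their starts, are shown because RAD17 is the member that moved most (chr5:26433901-26433963, TAIR10.1, plus strand, 5′ to 3′, no capitals since none of the motifs searched was found).
RAD17 upstream: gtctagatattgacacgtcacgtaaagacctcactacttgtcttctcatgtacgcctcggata
AT5G66120 also rose, from 70.5, 64.8 and 88.1 CPM to 146, 140 and 152 CPM in WT, and its averaged log2 change was 0.94 ± 0.08 (edgeR adjusted p = 5.1e-06). On the other side of RAD17 lies AT5G66140 (PAD2), a proteasome subunit gene that runs toward RAD17 and shares 2.41% of RAD17's exon bases on the opposite strand. It rose from 65.7 to 80.6 CPM over the mock libraries to 264 to 307 CPM under zeocin, an averaged log2 change of 1.94 ± 0.06 (edgeR adjusted p = 5.2e-10). Whether strand was used in counting is not given in the sources used here, and the part of the shared bases in either value was not tested. Both neighbours were examined for their position beside RAD17.

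For the other head-to-head pairs the neighbour gave no call. AT4G17750 (HSF1), whose start is 114 bases from that of RAD1, changed by 0.07 ± 0.06 on the averaged log2 scale (edgeR adjusted p = 0.568). AT1G08890, whose start is 48 bases from that of H2AXA, changed by -0.00 ± 0.13 (edgeR adjusted p = 0.995).

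The 3 genes of the clamp itself were low and moved less than their loader. RAD9 (AT3G05480, chr3:1585272-1589292, plus strand) was at 4.33, 3.66 and 3.42 CPM in WT mock and 5.48, 5.51 and 4.65 CPM in WT zeocin. It was at 4.01, 4.21 and 4.57 CPM in brl3-2 mock and 5.13, 5.55 and 5.69 CPM in brl3-2 zeocin. The treatments did not overlap in either genotype. RAD9 rose 1.32-fold averaged over the genotypes (95% interval 1.16 to 1.52; edgeR adjusted p = 0.0116). Within a genotype its adjusted p was 0.0682 in WT and 0.169 in brl3-2 (edgeR), so neither single change was called. DESeq2 called the change in WT (adjusted p = 0.0355), as did edgeR without WT mock replicate 1 (adjusted p = 0.0438).

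HUS1 (AT1G52530, chr1:19568588-19570058, plus strand) had 16 to 71 counts per library and RAD1 (AT4G17760, chr4:9871761-9873398, plus strand) had 19 to 108, the fewest of the 10 genes. HUS1 was at 0.660, 0.605 and 0.829 CPM in WT mock and 1.07, 1.51 and 1.02 CPM in WT zeocin, which did not overlap. In brl3-2 it was at 0.465, 0.916 and 0.746 CPM in mock and 0.916, 0.849 and 0.623 CPM under zeocin, which overlapped. Its log2 change was 0.75 ± 0.28 in WT (edgeR adjusted p = 0.219) and 0.16 ± 0.30 in brl3-2 (edgeR adjusted p = 0.909). RAD1 was at 0.545, 1.07 and 0.950 CPM in WT mock and 0.797, 1.66 and 1.55 CPM in WT zeocin, which overlapped. In brl3-2 RAD1 was at 0.959, 1.17 and 1.12 CPM in mock and 1.28, 1.52 and 1.38 CPM under zeocin, which did not overlap. The log2 change of RAD1 was 0.64 ± 0.30 in WT (edgeR adjusted p = 0.370) and 0.36 ± 0.30 in brl3-2 (edgeR adjusted p = 0.710). Its averaged log2 change was 0.50 ± 0.21 (edgeR adjusted p = 0.186), with a 95% interval of 0.04 to 0.96 before adjustment over genes. The averaged change of HUS1 was 0.46 ± 0.20 (edgeR adjusted p = 0.219; interval 0.01 to 0.90). Both intervals were wider than that of RAD9, whose averaged change was 0.41 ± 0.09.

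WEE1 (AT1G02970, chr1:673306-676419, plus strand), the output kinase of the set, rose in both genotypes. It was at 5.76, 5.48 and 5.91 CPM in WT mock and 14.5, 16.2 and 12.2 CPM in WT zeocin, and at 5.84, 6.41 and 6.31 CPM in brl3-2 mock and 16.0, 17.9 and 15.01 CPM in brl3-2 zeocin. No zeocin library came near the mock range. The rise was 2.49-fold in WT (95% interval 2.09 to 2.96; edgeR adjusted p = 1.3e-05) and 2.64-fold in brl3-2 (2.22 to 3.13; edgeR adjusted p = 7.6e-06). By unadjusted p, WEE1 ranked 165 of the 19437 genes in both genotypes.

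Upstream bases were searched for 3 motifs on both strands, as letters only. The motif known to be bound by SOG1, CTTNNNNNNNAAG, was in 11.4% of the 300-base and 33.3% of the 1000-base windows upstream of 27442 protein-coding genes. Any of the E2F-type motifs TTTCCCGC, TTTCGCGC, TTTGCCGC and TTTGGCGC was in 1.57% and 4.46% of them, and the histone octamer CGCGGATC in 0.149% and 0.481%. In 1000 bases, the SOG1 motif was found upstream of ATRIP, RAD9, HUS1 and WEE1, 4 of the 10 genes. In the 300-base windows it was found for HUS1, and an E2F-type motif was found for RAD9. No searched motif was found in the 1000 bases upstream of ATM, ATR, RAD17, RAD1, H2AXA or H2AXB. For RAD17, RAD1 and H2AXA, a gene on the other strand starts 63, 114 and 48 bases upstream. The rest of their windows lies inside that gene. Windows of RAD9 and WEE1 are shown since both genes were called and hold a match, and that of H2AXB since it was called and holds none (TAIR10.1, strand of the gene, 5′ to 3′, matches in capitals). They are chr3:1584972-1585271 (plus), chr1:672826-672975 (plus, from 480 to 331 bases before the WEE1 start) and chr1:20415288-20415587 (minus).
RAD9 upstream: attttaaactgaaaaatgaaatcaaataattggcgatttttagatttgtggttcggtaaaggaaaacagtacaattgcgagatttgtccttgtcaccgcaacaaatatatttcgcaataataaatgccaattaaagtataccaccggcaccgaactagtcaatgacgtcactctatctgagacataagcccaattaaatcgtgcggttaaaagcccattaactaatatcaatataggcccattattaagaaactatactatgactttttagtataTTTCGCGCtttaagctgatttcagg
WEE1 upstream: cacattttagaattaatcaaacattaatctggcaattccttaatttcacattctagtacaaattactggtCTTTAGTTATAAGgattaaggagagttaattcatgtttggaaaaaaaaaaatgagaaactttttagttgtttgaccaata
H2AXB upstream: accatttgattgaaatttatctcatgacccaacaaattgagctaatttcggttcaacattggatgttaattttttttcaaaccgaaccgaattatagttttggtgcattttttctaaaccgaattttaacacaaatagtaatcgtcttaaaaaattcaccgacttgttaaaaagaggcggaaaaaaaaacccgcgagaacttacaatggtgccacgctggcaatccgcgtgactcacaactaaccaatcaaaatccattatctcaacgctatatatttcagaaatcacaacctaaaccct
The capitals mark TTTCGCGC at 25 to 18 bases before the RAD9 start and CTTTAGTTATAAG at 410 to 398 bases before the WEE1 start. A second RAD9 match, CTTGAGAATAAAG, lies 466 to 454 bases before its start, outside the window shown. A match is a description of the letters and says nothing of binding.

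**Figure D2:**
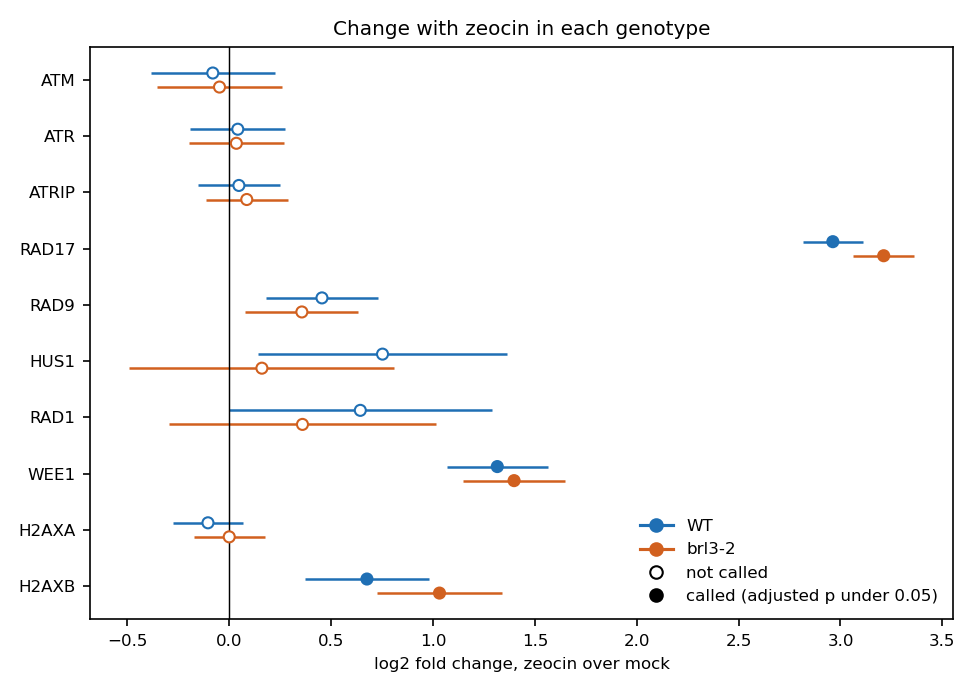
Log2 fold change of each gene with zeocin in WT (blue) and brl3-2 (orange), with 95% intervals. Filled points passed an edgeR adjusted p of 0.05: RAD17, WEE1 and H2AXB in both genotypes. The intervals of HUS1 and RAD1 are the widest.

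The 2 H2AX genes behaved differently. H2AXA (AT1G08880, chr1:2846894-2848100, minus strand) and H2AXB (AT1G54690, chr1:20414316-20415287, minus strand) encode near-identical copies of the histone variant that is phosphorylated at breaks. Their coding sequences have 429 bases each and share 379 of them (88.3%), and no run of 50 exon bases is common to both or to another H2A gene of the list. The last 60 coding bases, with the 9 differing bases in capitals, show how closely the copies match (TAIR10.1, minus strand of chromosome 1, 5′ to 3′).
H2AXA: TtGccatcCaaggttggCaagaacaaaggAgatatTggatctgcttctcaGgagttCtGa
H2AXB: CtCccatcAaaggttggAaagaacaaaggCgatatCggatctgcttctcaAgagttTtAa
The longest identical run in the coding sequences is 33 bases, so a read longer than that from the coding part spans at least 1 difference, though how multiply mapped reads were counted is not given in the sources used here.

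H2AXA had more counts than H2AXB in every library and gave no call. It was at 66.3, 66.7 and 71.0 CPM in WT mock, 63.7, 58.8 and 67.2 in WT zeocin, 64.8, 58.7 and 65.0 in brl3-2 mock and 59.0, 59.6 and 69.7 in brl3-2 zeocin. The groups overlapped, and the averaged log2 change was -0.05 ± 0.06 (edgeR adjusted p = 0.686), with a 95% interval of -0.17 to 0.07. H2AXB was at 15.1, 17.0 and 16.0 CPM in WT mock and 29.6, 28.4 and 19.1 CPM in WT zeocin. In brl3-2 it was at 14.7, 15.4 and 16.9 CPM in mock and 30.8, 33.9 and 31.3 CPM under zeocin. WT zeocin replicate 3 was the lowest of the 6 zeocin libraries, yet above every mock library. H2AXB rose 1.597-fold in WT (95% interval 1.29 to 1.97; edgeR adjusted p = 0.0129) and 2.04-fold in brl3-2 (1.65 to 2.53; edgeR adjusted p = 5.9e-04). The WT call was lost when only the WT libraries were fitted (adjusted p = 0.124) and without WT mock replicate 1, WT zeocin replicate 1 or WT zeocin replicate 2 (adjusted p = 0.0600, 0.0645 and 0.0673). Without both deep WT libraries the log2 change in WT was 0.85 (adjusted p = 2.5e-04).

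Within a library, the share of H2AX counts that came from H2AXA needs no scaling between libraries. It was 81.4%, 79.7% and 81.6% in WT mock and 68.3%, 67.4% and 77.8% in WT zeocin. In brl3-2 it was 81.5%, 79.2% and 79.4% in mock and 65.7%, 63.8% and 69.0% under zeocin. The exact 95% binomial interval (Clopper-Pearson, counting error only) was 76.8% to 78.9% in WT zeocin replicate 3 and reached at most 70.4% in any other zeocin library, so that library stood apart from the others by more than counting error. The share fell by 11.8 percentage points averaged over the genotypes, by 9.73 points in WT and 13.9 points in brl3-2. In an exact two-sided permutation test with treatments permuted within genotype, p was 0.005, the smallest that the 400 regroupings allow. Without both deep WT libraries, a setting added after the data were seen, the share fell by 13.3 points (exact permutation p = 0.0167). That is again the smallest p that the regroupings of the libraries left allow.

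**Figure D3:**
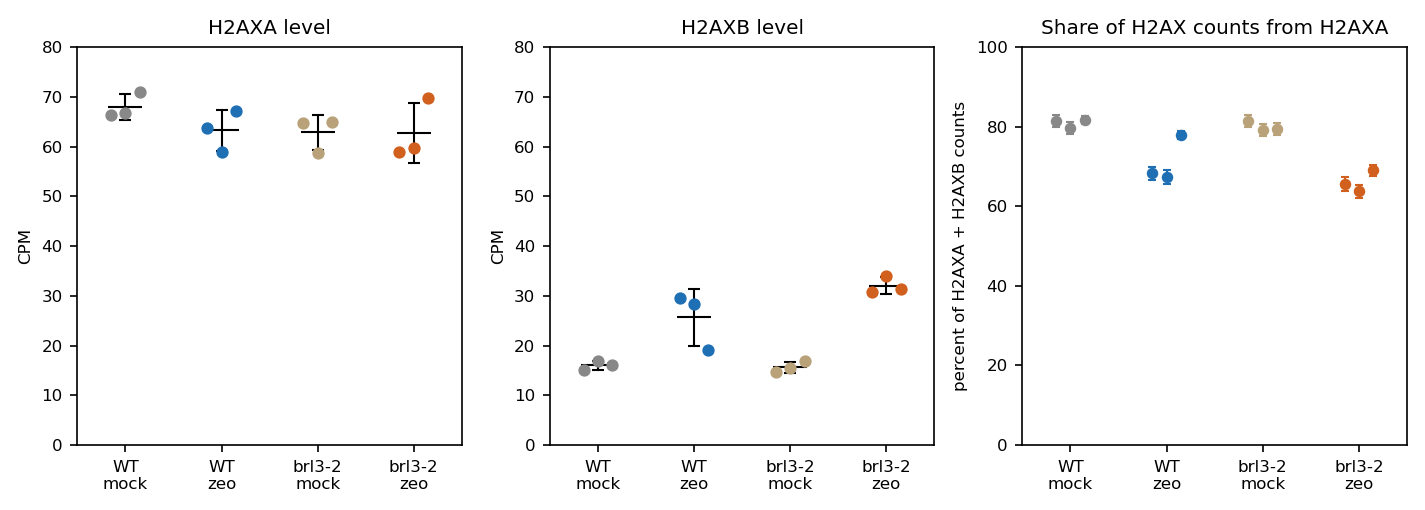
Levels of H2AXA and H2AXB in CPM (left and middle; bars, group means; error bars, SD, n = 3) and the share of their summed counts that came from H2AXA in each library (right; error bars, exact 95% binomial intervals). H2AXB is higher in all 6 zeocin libraries and the H2AXA share is lower in all 6.

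Of the H2AXB exon bases, 62.3% lie opposite exons of other annotated genes. One of those genes, the long noncoding RNA AT1G07983, is listed at 0 counts in all 12 libraries. The other, AT1G54680, was at 0.76 to 1.24 CPM and changed by -0.19 ± 0.15 on the averaged log2 scale (edgeR adjusted p = 0.574). For HUS1 the share was 32.1%, all but 1 base of it opposite AT1G07813, a long noncoding RNA listed at 0 in all libraries. Exon bases of ATM, ATRIP, RAD9, RAD1, WEE1 and H2AXA lie opposite no other exon, and 2.15% of those of ATR do. Whether reads from the shared H2AXB bases were counted for H2AXB is not given in the sources used here. What those bases add to or take from the H2AXB level, the H2AXA share and the order per kb of exon was not tested.

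Beside the H2AX genes, the other H2A genes and markers of S phase gave a frame for histone levels. In the averaged comparison, the background for both lists was 10.2% of all tested genes called and 7.20% called higher. Of 11 other H2A genes, 10 were tested and 1 rose there, HTA2 (0.57 ± 0.10; edgeR adjusted p = 0.00252). Their summed level was 527 to 650 CPM in the 12 libraries, against 74.1 to 101 CPM for both H2AX genes together. Of 12 S phase histone genes, 1 rose, the H3.1 gene AT5G65360, named after its values were seen, with an averaged log2 change of 2.17 ± 0.06. Another, the H4 gene AT3G53730, fell by 0.12 on the averaged log2 scale (edgeR adjusted p = 0.0401). The summed level of the 12 was 798 to 821 CPM in WT mock and 988 to 1035 in WT zeocin, and 756 to 834 in brl3-2 mock and 1069 to 1188 in brl3-2 zeocin, with no overlap in either genotype. With AT5G65360 left out because of its change, the sum was 729 to 756 CPM in WT mock, 694 to 754 in WT zeocin, 691 to 763 in brl3-2 mock and 721 to 869 in brl3-2 zeocin, and those mock and zeocin ranges overlapped in both genotypes.

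Genotype made no called difference to any of the 10 genes. Between brl3-2 and WT in mock, 0 of 10 were called, beside 0.0257% of all genes. Of all 19437 genes, 771 had an unadjusted p under 0.05, with 0 of the members. Groups did not overlap for 2 members, ATRIP (14.1 to 15.8 CPM in brl3-2 against 13.9 to 14.0) and H2AXA (58.7 to 65.0 against 66.3 to 71.0), beside 7.72% of all genes. Under zeocin 0 of 10 were called, beside 0.0412% of all genes. Of all 19437 genes, 412 had an unadjusted p under 0.05, and so did 2 members. These were RAD17, higher in brl3-2 by 0.24 ± 0.06 on the log2 scale (95% interval 0.10 to 0.37; edgeR adjusted p = 1.00), and H2AXB, higher by 0.32 ± 0.14 (0.02 to 0.62; edgeR adjusted p = 1.00). All 3 brl3-2 zeocin libraries lay above all 3 WT zeocin libraries for both genes. HUS1 lay the other way, lower in brl3-2 by 0.59 ± 0.28 with no overlap (95% interval -1.20 to 0.03; edgeR adjusted p = 1.00), and these 3 members stood beside 7.52% of all genes whose groups did not overlap under zeocin. Without both deep WT libraries the H2AXB difference was 0.14 and that of RAD17 was 0.20. DESeq2 and limma-voom also called 0 members in either genotype comparison.

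The difference between the zeocin responses of brl3-2 and WT was tested as an interaction, and 0 of 10 members and 0.00% of all genes were called. RAD17 was the only member with an unadjusted p under 0.05, beside 194 of all 19437 genes. Its response was larger in brl3-2 by 0.25 ± 0.09 on the log2 scale (95% interval 0.05 to 0.45; edgeR adjusted p = 1.00). For H2AXB the difference was 0.36 ± 0.20 (95% interval -0.07 to 0.79) and for WEE1 0.08 ± 0.16 (95% interval -0.27 to 0.43). Without WT zeocin replicate 3 the differences were 0.18 for H2AXB and -0.02 for WEE1. DESeq2 and limma-voom called 0 members. The upper end of the RAD17 interval corresponds to a response 1.36-fold larger in brl3-2.

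The order of levels between genes was read from CPM per kb of exon, over all exon bases, also those opposite other exons. In WT mock, H2AXA stood first at 61.7 ± 2.39 CPM per kb (SD, n = 3), then H2AXB at 20.0 ± 1.15 and RAD17 at 7.71 ± 0.28. ATM at 5.92, ATRIP at 5.81, ATR at 3.27, WEE1 at 3.01, RAD9 at 1.76, RAD1 at 0.720 and HUS1 at 0.574 CPM per kb followed. Libraries of neighbours overlapped for RAD17 and ATM, ATM and ATRIP, ATR and WEE1, and RAD1 and HUS1. Under zeocin RAD17 moved to first place, at 60.0 ± 2.21 CPM per kb in WT, where it overlapped H2AXA, and at 70.7 ± 4.07 in brl3-2, where it lay above H2AXA. WEE1 moved from position 7 to position 4 in WT, above ATRIP, ATM and ATR. The clamp genes kept positions 8 to 10 in all 4 groups.

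**Figure D4:**
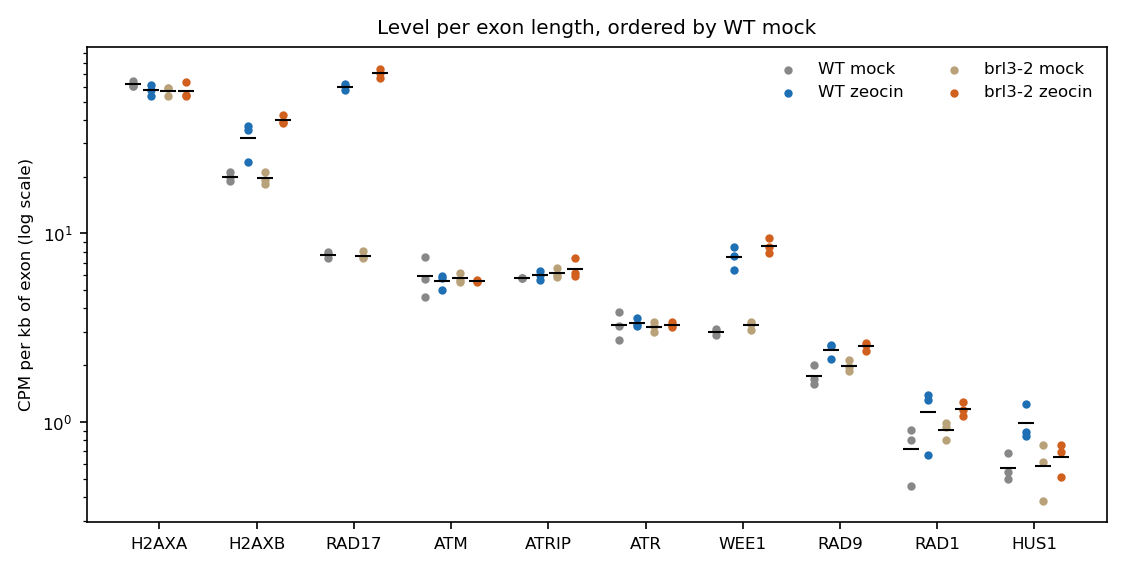
CPM per kb of exon of the 10 genes on a log axis, ordered by the mean in WT mock (points, libraries; bars, group means, n = 3). RAD17 rises from position 3 to the level of H2AXA under zeocin, and RAD9, RAD1 and HUS1 stay lowest in all 4 groups.

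The genes around the checkpoint were read by list in the averaged zeocin comparison, with the same background of 10.2% of genes called. Of 7 damage sensors and mediators (MRE11, RAD50, NBS1, MEI1, SOG1, TIM and TIPIN), 0 were called, with a median log2 change of 0.06 and a range of -0.11 to 0.22. By unadjusted p under 0.05 there was 1, TIM, at 0.22 ± 0.10 (edgeR adjusted p = 0.225), beside 4220 of all 19437 genes. DESeq2 and limma-voom also called 0 of the 7. SOG1 itself changed by 0.00 ± 0.04 (edgeR adjusted p = 0.981). The 3 relatives of ATM and ATR (TOR, TRA1A and TRA1B) gave 0 calls in edgeR, DESeq2 and limma-voom, 0 at an unadjusted p under 0.05, and changes of -0.11 to -0.01.

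Among 9 loader and sliding clamp genes, 4 rose and 0 fell. RFC1, the large subunit of the replication clamp loader, rose by 1.25 ± 0.08 on the log2 scale (edgeR adjusted p = 4.0e-07). PCNA1, a gene of the replication clamp, rose by 0.57 ± 0.09 (edgeR adjusted p = 0.00123). PCNA2, the other clamp gene of the list, had an edgeR unadjusted p under 0.05 but was not called. Over the 12 libraries PCNA2 was at 35.0 to 51.6 CPM and PCNA1 at 12.1 to 23.4 CPM. CTF18 and ELG1, large subunits of alternative loaders, had smaller rises of 0.34 ± 0.08 and 0.22 ± 0.06 (edgeR adjusted p = 0.0149 and 0.0289). The small subunits RFC2 to RFC5, which the RAD17 complex shares with the others, changed by 0.02 to 0.05 and were not called. The call of ELG1 was lost in 10 of 20 other settings, such as scaling by library totals only, and that of CTF18 in 2.

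Of 5 large subunits of replication protein A, which coats the single strands that ATRIP binds, 4 rose: RPA1E by 2.58 ± 0.06, RPA1C by 2.02 ± 0.06, RPA1A by 1.01 ± 0.04 and RPA1D by 0.43 ± 0.08 (edgeR adjusted p at most 0.00366). Of 9 genes that act on or beside the phosphorylation of cyclin-dependent kinases, 1 rose and 1 fell. CDKD;2, a kinase that activates others of its class, rose by 0.78 ± 0.08 (edgeR adjusted p = 3.7e-05), and CDKF;1 fell by 0.15 (edgeR adjusted p = 0.0427), a call lost in 13 of 20 other settings. CDKA;1, the kinase that WEE1 phosphorylates, changed by -0.05 ± 0.04 (edgeR adjusted p = 0.567).

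**Figure D5:**
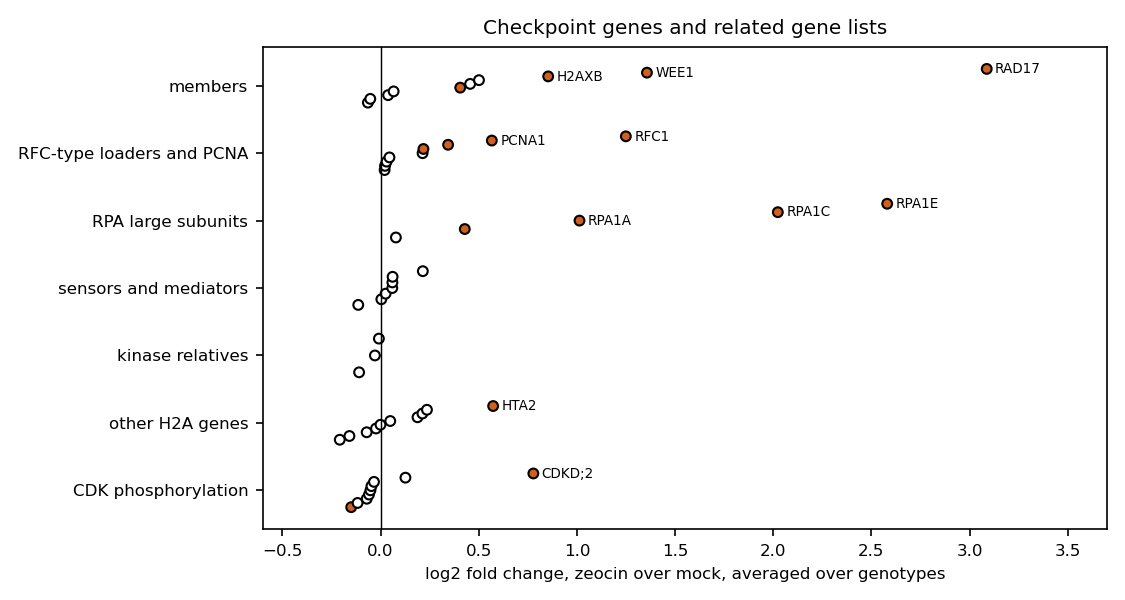
Log2 fold change with zeocin, averaged over the genotypes, of the 10 members and of 6 related gene lists (points, genes; filled, edgeR adjusted p under 0.05). The sensors and mediators and the kinase relatives have no filled point, whereas RPA large subunits and loader genes have 4 each.

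Genes with the most similar pattern were ranked by the Pearson correlation of log2 CPM over the 12 libraries, which fall into mock and zeocin clusters, so the values mostly restate the treatment. For RAD17 they were XRI1 (0.9994), SYN2 (0.9990), AT1G51130 (0.9989) and AT1G59660 (0.9988). XRI1 and SYN2, known as an X-ray induced gene and a cohesin subunit, had averaged log2 changes of 4.94 and 3.76. For WEE1 the closest were AT1G66430 (0.9961), AT3G07810 (0.9958) and ASY3 (0.9952), a gene of the meiotic chromosome axis. For RAD9 the closest was PCNA1 (0.9699), and for H2AXB it was AT3G58580 (0.9825), followed by E2F3 (0.9766). Among the members, RAD17 and WEE1 correlated at 0.99 and H2AXB with WEE1 at 0.95, whereas H2AXA correlated with H2AXB at -0.37.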

How the data were processed

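The authors deposited raw counts per gene in 1 table with 12 library columns. The submitters' processing notes name HISAT2 2.1 and featureCounts 1.6.2, with FastQC 0.11.2 and Trimmomatic 0.38, then edgeR 3.34.1, and the TAIR10 build. Per the labels, libraries were stranded and each was sequenced in 2 runs. Strand use, the treatment of multiply mapped reads and run merging were not given in the sources used here. The 1 unnamed row (at most 0.00393% of a library) was left out.

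Counts were analysed with edgeR 4.0.16 in R 4.3.3. The filterByExpr function kept genes past a count of 10 and a total of 15, TMM scaled the libraries, and a quasi-likelihood model of the 4 groups took in the 12 libraries together, with a shared estimate of the spread. The SE is the log2 fold change divided by the square root of F. Replicates differed beyond counting noise, with chi-square over degrees of freedom of 7.69 to 98.9 per pair, so none was merged. The test was checked on simulated data. The H2AXA share was tested by exact permutation within genotype. Alternatives were RLE, upper-quartile or no scaling, no filter, DESeq2 1.42.0, voom in limma 3.58.1, a replicate block, a fit on only the groups compared, and leaving libraries out.

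Gene models, symbols and upstream windows came from RefSeq's TAIR10.1, used only for the nuclear chromosomes. The members, lists, motifs and tests were chosen with earlier results of these data known. All members were named. Of other lists, up to 4 called genes with the smallest adjusted p were named, and beyond that single genes as a contrast. For members called in the averaged comparison, the closest of the 5 most correlated genes were named. Genes beside RAD17 were examined for their position after the data were seen. One gene is not reported here.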

Additional observations from a re-analysis of the deposited data

How the results depend on the processing

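The number of members called stayed at 2 to 4 in WT, at 3 in brl3-2, at 4 averaged and at 0 in the genotype comparisons and the interaction, in every alternative run. Of 1240 refitted values of single members, 1234 kept their direction if called and their side of the threshold, 4 lost a call (H2AXB in WT) and 2 gained one (RAD9 in WT). None that was called reversed, while 65 uncalled values changed sign. Of 868 refitted values of other named genes, 56 lost a call, 12 gained one and 0 reversed. In WT, the calls of PCNA1 and RPA1D were lost in 11 and 13 of 21 settings. The cause of these changes was not tested.

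Counts over all genes moved more. With only the groups compared, the count of genes called was 566 in WT zeocin (967 with all groups), 2 for genotype in mock (5) and 5 for genotype under zeocin (8). DESeq2 called 12 genes for genotype in mock. Without both WT libraries numbered 3, 4 genes were called for genotype under zeocin. With each library left out in turn, the counts were 673 to 1399 genes in WT zeocin, 706 to 1323 in brl3-2 zeocin, 1517 to 2765 averaged, 4 to 5 for genotype in mock and 4 to 7 under zeocin. The fall of the H2AXA share ranged from -13.5 to -10.9 points when 1 library was left out, and was -13.5 points with counts per exon length.

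No label says what a replicate number shares, and pairing was accepted only if the deviations of all 3 same-numbered pairs of the groups compared correlated above 0.1. They correlated at 0.24, 0.01 and 0.59 between WT mock and zeocin, at 0.00, 0.11 and 0.03 in brl3-2, at 0.29, 0.10 and 0.40 between genotypes in mock (the second just short of the limit) and at -0.21, 0.19 and -0.12 under zeocin. WT zeocin and brl3-2 mock, which were not compared, correlated at 0.12, 0.30 and 0.42. The libraries numbered 3 in WT mock, WT zeocin and brl3-2 mock thus deviated together. With the replicate block, 3, 3 and 4 members were called in WT, brl3-2 and averaged, and 1041, 1144 and 2181 of all genes. The count for genotype was 6 in mock and 6 under zeocin, with 0 members. HUS1 and RAD1 had the fewest counts, 16 and 19 in their lowest libraries. What depth and what replicate spread add to their wide intervals was not tested.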
